A study of Mus musculus with 6 samples.

Results

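Leucine, isoleucine and valine, the branched-chain amino acids, are broken down in mitochondria along a pathway whose first steps serve all of them. A transaminase turns each into its keto acid, the branched-chain keto acid dehydrogenase complex then removes carbon dioxide irreversibly, and separate enzymes finish each carbon skeleton. The complex is switched off when the kinase Bckdk phosphorylates it and on again when the phosphatase Ppm1k removes the phosphate. Liver is known for ample dehydrogenase and little transaminase, so that much of the transamination takes place in muscle and other tissues.

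The 10 genes described here are Bcat2, Bckdha, Bckdhb, Dbt, Bckdk, Ppm1k, Ivd, Mccc1, Hibch and Aldh6a1, listed by name for their place in this pathway, with earlier results of these data known. All 10 were found by Ensembl identifier among the 55471 genes of the count tables, and all 10 were among the 13812 genes with enough counts to be tested. RNA was sequenced from livers of male C57BL/6J mice of wild-type genotype, of which 3 had been without food for 16 h and 3 for 4 h, each mouse giving 1 library. No group was fed at the time of sampling, so the comparison is between a long and a short fast. The age of the mice and the hour of day at which the livers were taken are not stated in the labels.

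Among these genes 1 change was large enough to pass the test. Ppm1k, the phosphatase that switches the dehydrogenase complex on, rose 1.45-fold, and the other 9 members did not pass the test. That is 1 of 10 members higher and 0 lower, where 9.18% of all tested genes were higher and 9.51% lower (edgeR quasi-likelihood test, adjusted p below 0.05), so the count lies near the background. DESeq2 also called 1 member higher and 0 lower, against 10.2% and 9.27% of all genes it tested. Without 4 h replicate 3, a library described further on, 2 members were higher and 1 lower, against 11.1% and 9.73% of all genes. The median log2 fold change over the 10 members was 0.13, against -0.03 over all tested genes. The median size of the change, whatever its sign, was 0.14 for the members and 0.27 for all tested genes. The tested genes include some with far fewer counts than any member and were not matched to the members for level. The difference in size was not tested.

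Promoter sequences are shown for Ppm1k, for the kinase that works against it, and for Hsd17b10 and Hibadh, pathway genes outside the set that rose and fell. They are the 250 bases before the annotated start, from RefSeq on GRCm38.p6, read 5′ to 3′ on the strand of the gene, with each CpG in capitals. Ppm1k lies on the minus strand (chr6:57535488-57535737), Bckdk on the plus strand (chr7:127903823-127904072), Hsd17b10, an isoleucine enzyme, on the plus strand (chrX:152001646-152001895) and Hibadh, a valine enzyme, on the minus strand (chr6:52640301-52640550).
Ppm1k: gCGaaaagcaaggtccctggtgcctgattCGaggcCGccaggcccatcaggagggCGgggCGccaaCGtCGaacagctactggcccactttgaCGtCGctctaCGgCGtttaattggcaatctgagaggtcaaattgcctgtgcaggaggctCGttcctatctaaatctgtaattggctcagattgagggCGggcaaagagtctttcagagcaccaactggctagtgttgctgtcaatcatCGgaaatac
Bckdk: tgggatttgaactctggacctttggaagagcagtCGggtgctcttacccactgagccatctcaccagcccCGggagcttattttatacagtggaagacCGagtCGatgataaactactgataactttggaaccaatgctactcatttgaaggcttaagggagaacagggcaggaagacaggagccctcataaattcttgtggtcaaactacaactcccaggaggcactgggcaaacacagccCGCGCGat
Hsd17b10: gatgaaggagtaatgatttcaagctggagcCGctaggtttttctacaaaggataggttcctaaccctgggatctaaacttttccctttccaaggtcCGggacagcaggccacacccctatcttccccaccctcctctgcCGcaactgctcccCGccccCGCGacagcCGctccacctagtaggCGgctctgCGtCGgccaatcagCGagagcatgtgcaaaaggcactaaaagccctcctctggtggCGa
Hibadh: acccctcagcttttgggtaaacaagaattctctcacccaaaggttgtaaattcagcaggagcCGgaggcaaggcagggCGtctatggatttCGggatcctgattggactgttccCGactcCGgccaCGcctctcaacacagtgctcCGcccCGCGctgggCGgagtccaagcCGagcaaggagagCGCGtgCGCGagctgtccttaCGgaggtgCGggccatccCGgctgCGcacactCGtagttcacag
These stretches hold 14 CpG in Ppm1k, 7 in Bckdk, 12 in Hsd17b10 and 20 in Hibadh. In the full window of 300 bases, which also takes in the 50 bases after the start, 12 promoters of 9 members were in the table, and Dbt had no entry. Their CpG number ran from 2 for the second promoter of Bckdhb to 20 for Hibch and the first promoter of Bckdhb, with a median of 11.5, against 7 over all 32851 promoters.
Both strands of each window were searched for letters that known regulators of fasting bind. These were the E-box CACGTG, the core of the element read by ChREBP, the direct repeat read by PPAR receptors (AGGTCA, any base, AGGTCA), the glucocorticoid element (AGAACA, any 3 bases, TGTTCT) and the cyclic AMP element TGACGTCA. None of the 12 member promoters held any of them. Over all promoters of the table the shares were 7.15% for the E-box, 0.0396% for the direct repeat, 0.00913% for the glucocorticoid element and 1.79% for the cyclic AMP element, so a match was rare for most of these letters in any gene. The absence of a match says only that these letters are not in the window.

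Library depth lay between 15173653 and 26572532 counts assigned to genes, and the least covered member, Bckdk, had at least 164 counts in every library. Albumin, the defining transcript of hepatocytes, was at 55108 to 64109 CPM (counts relative to library size) in 16 h livers and at 54439 to 68083 CPM in 4 h livers. Markers of tissues rich in the transaminase Bcat2 were near 0, since the 8 skeletal muscle markers summed to 0.903 to 3.82 CPM in 16 h livers and 0.965 to 5.33 CPM in 4 h livers, and 6 pancreas markers to 0.311 to 0.421 and 0.514 to 0.574 CPM. Prss2, Pnlip and Cel of the pancreas list and Lep of the fat list had 0 counts in all libraries. One library stood apart, replicate 3 of the 4 h fast, in which 8 lung markers summed to 186.8 CPM, where no other library exceeded 8.79 CPM, and 8 neutrophil markers to 15.8 against at most 5.06 CPM. Scgb1a1, the leading lung marker, was at 94.9 CPM there, and the neutrophil markers S100a9 and Csf3r (Csf3r leading on average over all libraries) were at 6.00 and 2.45 CPM. The neutrophil rise was not shared by Ngp, Camp and Ltf, which were lower there than in 16 h replicate 3. Of resident cell types, 6 Kupffer cell markers led by Clec4f summed to 76.6 to 90.9 CPM in 16 h livers and 81.7 to 144 CPM in 4 h livers, 6 of sinusoidal endothelium led by Stab2 to 96.8 to 128 and 93.5 to 106 CPM, 6 of stellate cells led by Dcn to 127 to 191 and 167 to 249 CPM, and 6 of bile duct cells led by Spp1 to 37.1 to 44.8 and 41.3 to 57.4 CPM. The Kupffer sum of 144 CPM was that of 4 h replicate 3, where no other library exceeded 107 CPM. The 6 fat cell markers, led by Cidec, which hepatocytes also express, summed to 19.1 to 31.6 and 7.47 to 16.1 CPM. By the edgeR test the stellate markers Col1a1 and Col3a1, the Kupffer marker Timd4 and the fat marker Cfd were lower after 16 h, Cidec was higher, and of 8 hepatocyte markers 3 were higher and 2 lower. The part of these markers, and of the library that stood apart, in the results was not tested. For named genes of the pathway, those around it and the pyruvate complex, calls that change without 4 h replicate 3 are given with their values. Calls of markers are given for all libraries together only.

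Ppm1k (ENSMUSG00000037826, chromosome 6 at 57506502 to 57535468 of GRCm38) encodes a mitochondrial protein phosphatase that removes the inhibitory phosphate from the dehydrogenase complex. It was at 143, 134 and 126 CPM in replicates 1, 2 and 3 of the 16 h fast, against 91.3, 111 and 76.2 CPM in those of the 4 h fast. The lowest 16 h liver lay above the highest 4 h liver, and the spread was wider after 4 h. The means were 135 ± 8.7 CPM after 16 h and 92.7 ± 17.3 CPM after 4 h (SD, n = 3 each), a log2 fold change of 0.54 ± 0.14 (SE) with a 95% interval from 0.24 to 0.84 (edgeR adjusted p = 0.0191). The change lay between 0.43 and 0.70 in all alternatives, but it missed the threshold when 4 h replicate 1 was left out (edgeR adjusted p = 0.0508), and likewise without 16 h replicate 1 (0.0743) and without 16 h replicate 2 (0.0680). In bulk liver, fewer cells of a type and less RNA per cell cannot be told apart, which holds for every level given here.

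Bckdk (ENSMUSG00000030802, chromosome 7 at 127904082 to 127910221) encodes the kinase that inactivates the complex, and it was the least abundant member. It had 13.1, 14.0 and 15.1 CPM in 16 h livers, against 10.7, 10.6 and 13.4 CPM in 4 h livers. The groups overlapped only through 4 h replicate 3, whose 13.4 CPM exceeded the lowest 16 h liver. The log2 fold change of 0.28 ± 0.14 did not pass (edgeR adjusted p = 0.18, 95% interval -0.02 to 0.59). Without 4 h replicate 3, the library with lung markers, it was 0.41 and passed (edgeR adjusted p = 0.0328).

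The kinase and the phosphatase act on the same protein, so their ratio was compared within each liver. Ppm1k CPM were 10.98, 9.60 and 8.35 times those of Bckdk in 16 h livers, against 8.54, 10.5 and 5.68 times in 4 h livers. The groups overlapped, and the low value was again 4 h replicate 3. As log2 of Bckdk over Ppm1k the ratio was -3.26 ± 0.20 after 16 h and -3.0 ± 0.45 after 4 h (SD, n = 3 each). The difference of -0.26 gave p = 0.5 in an exact 2-sided permutation test, in which 3 against 3 livers cannot go below 0.1. Without 4 h replicate 3 the difference was -0.02. With so few livers the test could not have passed 0.05, and the ratio is given as a description.

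**Figure D1:**
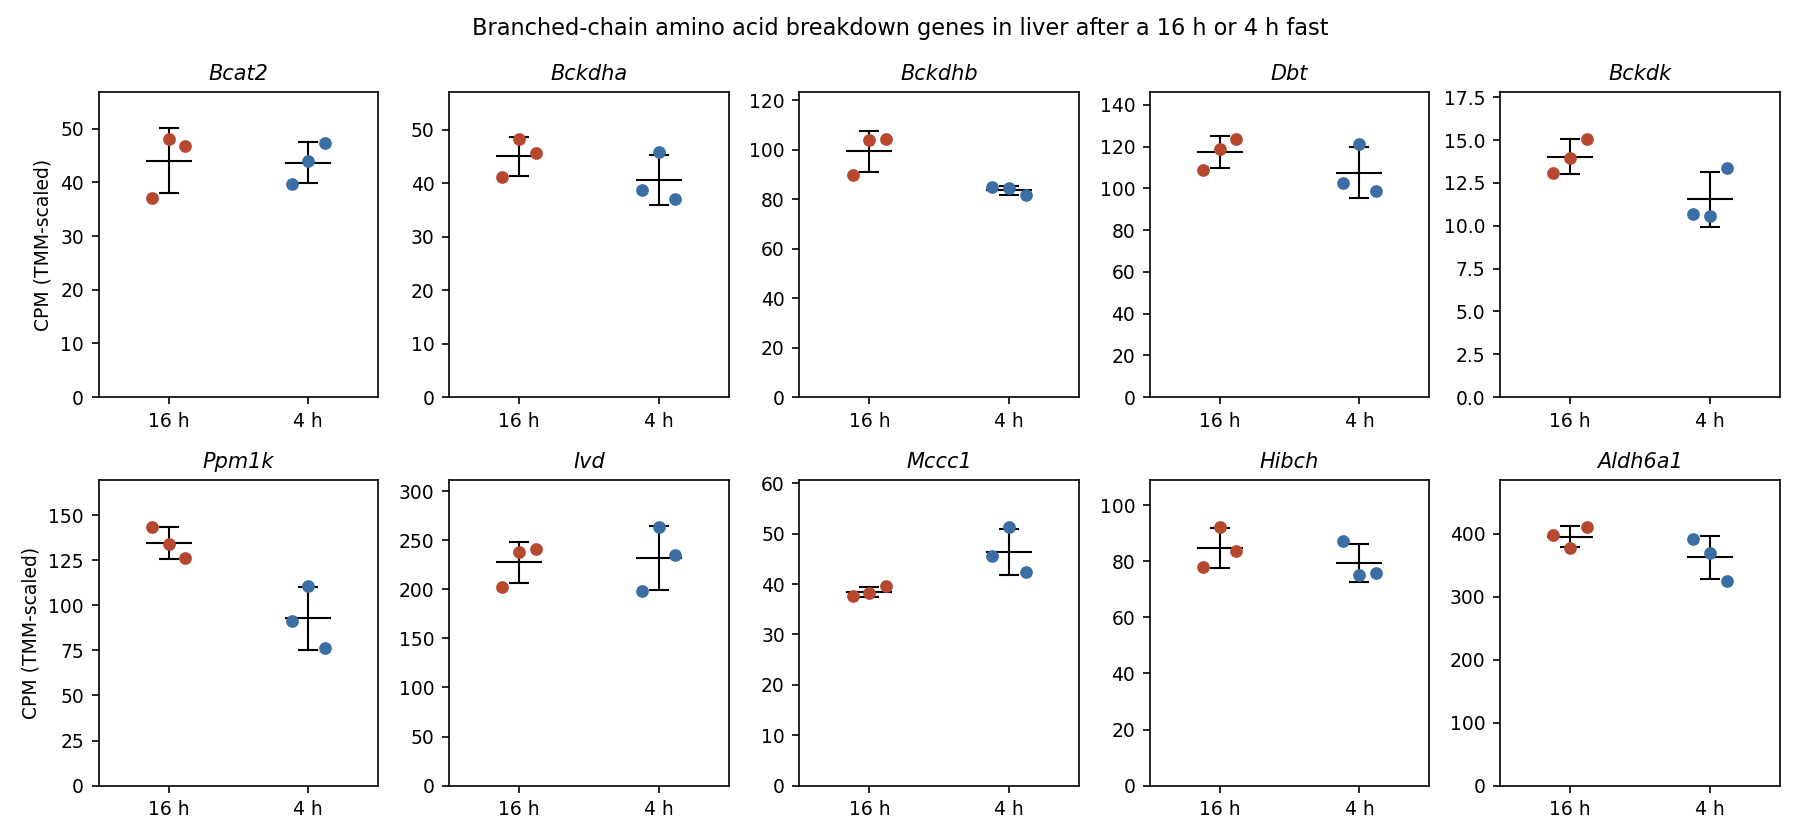
CPM of the 10 genes in each liver (points) on linear axes that start at 0, with the 16 h fast at the left and the 4 h fast at the right of each panel; black bars are the mean and SD of 3 livers. The groups of Ppm1k and Bckdhb do not overlap, with 16 h above 4 h, and those of Mccc1 do not overlap, with 16 h below 4 h. Of all tested genes 19.7% were separated in each of these directions.

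The complex itself is built from the E1 subunits Bckdha and Bckdhb, which decarboxylate the keto acid, the E2 core Dbt, which passes the acyl group to coenzyme A, and the E3 enzyme Dld, which it has in common with other keto acid dehydrogenases. Bckdhb (ENSMUSG00000032263, chromosome 9 at 83925145 to 84124240) was at 89.7, 104 and 105 CPM in 16 h livers, against 85.0, 84.6 and 81.7 CPM in 4 h livers. Every 16 h liver lay above every 4 h liver, a separation that 19.7% of all tested genes showed in this direction. The log2 fold change of 0.25 ± 0.10 did not pass (edgeR adjusted p = 0.123, 95% interval 0.02 to 0.48), and it did not pass in any alternative (adjusted p 0.0836 to 0.323).

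Bckdha (ENSMUSG00000060376, chromosome 7 at 25629946 to 25658981) had 41.1, 48.3 and 45.6 CPM in 16 h livers, against 38.8, 45.8 and 37.1 CPM in 4 h livers. Its groups overlapped, with a log2 fold change of 0.15 ± 0.12 (edgeR adjusted p = 0.396). Of its exon bases 61.7% lie under the antisense gene B3gnt8. Reads there may have been left unassigned, so its level is uncertain and may be too low. Dbt (ENSMUSG00000000340, chromosome 3 at 116513070 to 116549981) was at 109, 119 and 124 CPM in 16 h livers, against 102, 121 and 98.9 CPM in 4 h livers. The highest 4 h liver, replicate 2, exceeded the lower 16 h livers (0.12 ± 0.11, edgeR adjusted p = 0.477). Dld, no member of the set but part of the complex, averaged 151 ± 11.6 CPM in 16 h livers and 138 ± 4.3 CPM in 4 h livers and did not pass (0.12 ± 0.10, edgeR adjusted p = 0.437). All structural subunits were thus between 0.12 and 0.25 above the 4 h level on the log2 scale, each short of the test, and Dbt was at 0.08 without 4 h replicate 3.

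Upstream of the complex, Bcat2 encodes the mitochondrial transaminase (ENSMUSG00000030826, chromosome 7 at 45570153 to 45589711). It had 37.1, 48.2 and 46.8 CPM in 16 h livers, against 39.7, 44.0 and 47.2 CPM in 4 h livers. The 4 h values lay inside the range of the 16 h values, and the log2 fold change was 0.01 ± 0.12 (edgeR adjusted p = 0.959, 95% interval -0.26 to 0.29), with 15.9% of the exon bases under an antisense gene. Bcat1, the cytosolic transaminase, was not testable, with 0 counts in 5 libraries and 0.0367 CPM in 4 h replicate 1. Slc25a44, the mitochondrial carrier of branched-chain amino acids, was named after its values were seen. It was at 54.7, 59.2 and 54.7 CPM in 16 h livers, against 79.1, 69.2 and 64.2 CPM in 4 h livers, with no overlap. Its log2 fold change of -0.34 ± 0.11 just missed the threshold (edgeR adjusted p = 0.0538) and passed without 4 h replicate 3 (0.00858).

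In the leucine branch, Ivd encodes isovaleryl-CoA dehydrogenase, the first enzyme after the complex (ENSMUSG00000027332, chromosome 2 at 118861954 to 118882909). It was at 203, 238 and 241 CPM in 16 h livers, against 198, 263 and 235 CPM in 4 h livers. The 16 h values lay inside the range of the 4 h values (-0.03 ± 0.13, edgeR adjusted p = 0.893). Mccc1, the biotin-carrying subunit of methylcrotonyl-CoA carboxylase (ENSMUSG00000027709, chromosome 3 at 35959312 to 36000678), was the only member whose 16 h livers all lay below the 4 h livers, where 19.7% of tested genes showed this separation. It had 37.7, 38.2 and 39.6 CPM in 16 h livers, against 45.5, 51.3 and 42.3 CPM in 4 h livers. The log2 fold change of -0.27 ± 0.11 did not pass (edgeR adjusted p = 0.103). Without 4 h replicate 3 it was -0.32 and passed (0.0240). Its partner subunit Mccc2 averaged 62.8 ± 4.5 CPM in 16 h livers and 65.5 ± 4.2 CPM in 4 h livers, with overlapping groups (-0.06 ± 0.11, edgeR adjusted p = 0.729).

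In the valine branch, Hibch encodes the enzyme that frees hydroxyisobutyrate from coenzyme A (ENSMUSG00000041426, chromosome 1 at 52844929 to 52920986). It was at 78.0, 92.2 and 83.8 CPM in 16 h livers, against 87.3, 75.0 and 75.8 CPM in 4 h livers, with overlapping groups (0.09 ± 0.11, edgeR adjusted p = 0.60). Aldh6a1, the methylmalonate semialdehyde dehydrogenase at the end of the branch (ENSMUSG00000021238, chromosome 12 at 84430717 to 84451004), was the most abundant member. It had 397, 378 and 410.5 CPM in 16 h livers, against 392, 370 and 325 CPM in 4 h livers. The groups overlapped (0.13 ± 0.11, edgeR adjusted p = 0.462), and 18.6% of its exon bases lie under the antisense gene Bbof1.

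The enzyme that works between these members, the hydroxyisobutyrate dehydrogenase Hibadh, did fall. It was at 213, 224 and 242 CPM in 16 h livers, against 312, 321 and 311 CPM in 4 h livers, far from overlap and with little spread after 4 h. The log2 fold change was -0.48 ± 0.10 (edgeR adjusted p = 0.00891), and the call was lost without 16 h replicate 1 (0.0574) or 16 h replicate 2 (0.0511). The valine branch thus held a gene that fell between 2 whose change was at most 0.13 in log2 size. Whether Hibadh differs from Hibch or Aldh6a1 in its change was not tested.

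For the 9 members that did not pass, the 95% intervals show how precise each estimate was. They hold for each gene singly and were not adjusted for the number of genes. The lowest bound was -0.50, for Mccc1, and the highest 0.59, for Bckdk. A doubling or halving, which is 1 on the log2 scale, lay outside the interval of each of the 9 members. The estimate of 0.54 for Ppm1k lay inside the interval of Bckdk alone. The lower end of Ppm1k's own interval, 0.24, lay inside that of each of the 9 members except Mccc1. Whether any of them differs from Ppm1k in its change was not tested. Without 4 h replicate 3 the log2 fold changes of Bcat2, Ivd and Aldh6a1, which also moved by over 1.5 times, were 0.09, -0.01 and 0.06, none of them called.

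Beyond the members, 15 other genes of the pathway were listed, and all but Bcat1 were tested. Of these 14, 2 rose, 1 fell and 11 did not pass, with a median log2 fold change of -0.05. Over all tested genes 9.18% rose and 9.51% fell, so these counts lie near the background. Both genes that rose, Hsd17b10 and Acat1, act in isoleucine breakdown, where Acadsb and the hydratase Echs1, which also serves valine, did not pass. Hsd17b10, a mitochondrial hydroxyacyl-CoA dehydrogenase that is also a subunit of mitochondrial RNase P, was at 362, 404 and 442 CPM in 16 h livers, against 162, 147 and 220 CPM in 4 h livers. It rose 2.29-fold (log2 1.19 ± 0.15, edgeR adjusted p = 4.23e-04) and kept its call in all alternatives. Acat1, the mitochondrial thiolase that also serves ketone body synthesis, was at 650, 579 and 652 CPM in 16 h livers, against 511, 448 and 442 CPM in 4 h livers. It rose 1.34-fold (log2 0.42 ± 0.11, edgeR adjusted p = 0.0233), a call that ended when 4 h replicate 2 (0.0551) or 16 h replicate 1 or 3 (0.0811 and 0.0955) was left out. Acadsb, the first enzyme of that branch after the complex, did not pass, with means of 157 ± 8.5 CPM in 16 h livers and 170 ± 20.9 CPM in 4 h livers (-0.11 ± 0.12, edgeR adjusted p = 0.533). Echs1 was at 193, 207 and 218 CPM in 16 h livers, against 213, 213 and 237 CPM in 4 h livers, with overlapping groups (-0.10 ± 0.11, edgeR adjusted p = 0.536).

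Of the propionate steps, which valine and isoleucine both feed, 0 of 4 genes passed, where 9.18% of all tested genes were higher and 9.51% lower. Mcee, the methylmalonyl-CoA epimerase and named after its values were seen, came nearest, with 29.0, 30.3 and 31.4 CPM in 16 h livers, against 36.8, 34.3 and 49.4 CPM in 4 h livers (-0.41 ± 0.14, edgeR adjusted p = 0.0591). The highest value was that of 4 h replicate 3, without which the change was -0.22 (0.103). It passed with the replicate number as a block (0.0430), without the filter on low counts (0.0313) and when 4 h replicate 2 was left out (0.0332).

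**Figure D2:**
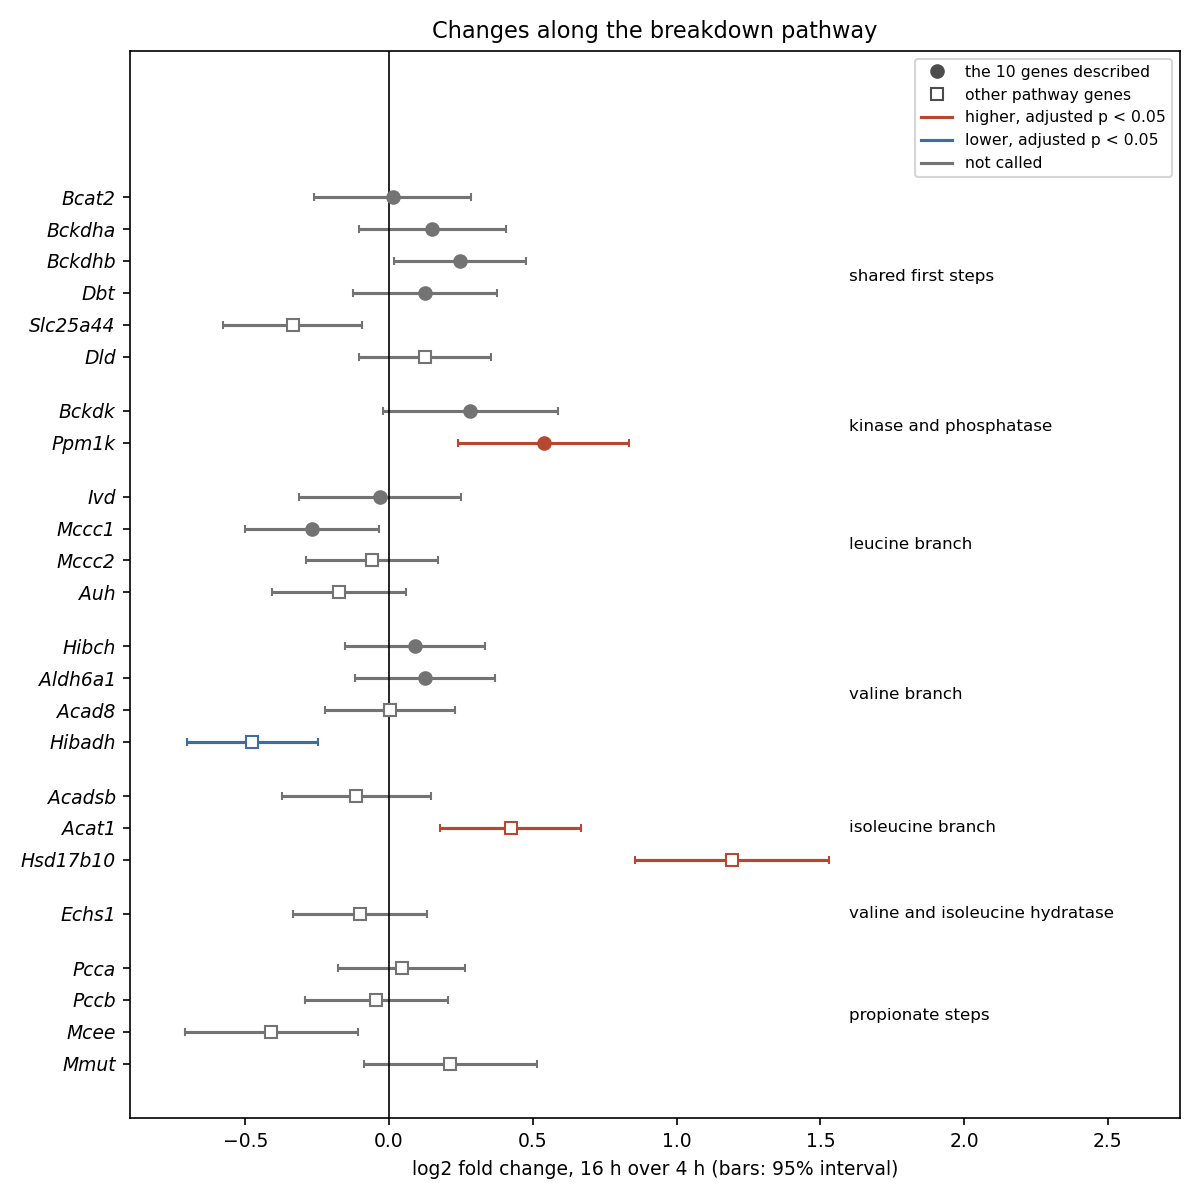
Log2 fold change of 16 h over 4 h for the 10 genes (filled circles) and 14 other tested pathway genes (open squares), grouped by step, with 95% intervals from the edgeR fit. Ppm1k, Acat1 and Hsd17b10 are marked as higher and Hibadh as lower, and all other genes are grey.

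Levels of different genes were compared per kilobase of the longest principal transcript. After 16 h Aldh6a1 led with 116 ± 4.9 CPM per kb, followed by Bckdhb with 67.5 ± 5.7, Ivd with 62.0 ± 5.8, Hibch with 46.3 ± 3.9 and Dbt with 35.5 ± 2.3 CPM per kb (SD, n = 3). Bcat2 with 24.8 ± 3.4, Ppm1k with 24.2 ± 1.6 and Bckdha with 23.7 ± 1.9 CPM per kb did not differ beyond their spread, nor did Bckdhb and Ivd. Mccc1 with 15.7 ± 0.41 and Bckdk with 4.12 ± 0.30 CPM per kb came last. After 4 h Ppm1k stood below Mccc1 on the same scale, at 16.7 ± 3.1 against 18.9 ± 1.9 CPM per kb, within their spread. The lengths matter for this order. Over the union of all annotated exons, a length chosen after the data were seen, Hibch came to 14.0 and Mccc1 to 3.51 CPM per kb after 16 h, which put Hibch below Dbt, Bckdha and Ppm1k, and Mccc1 below Bckdk at 3.80. On that length Bcat2 came to 11.3, against 22.3 for Ppm1k and 23.7 for Bckdha, and Ivd to 41.3, against 55.1 for Bckdhb, so the values that lay together per principal transcript lay apart.

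**Figure D3:**
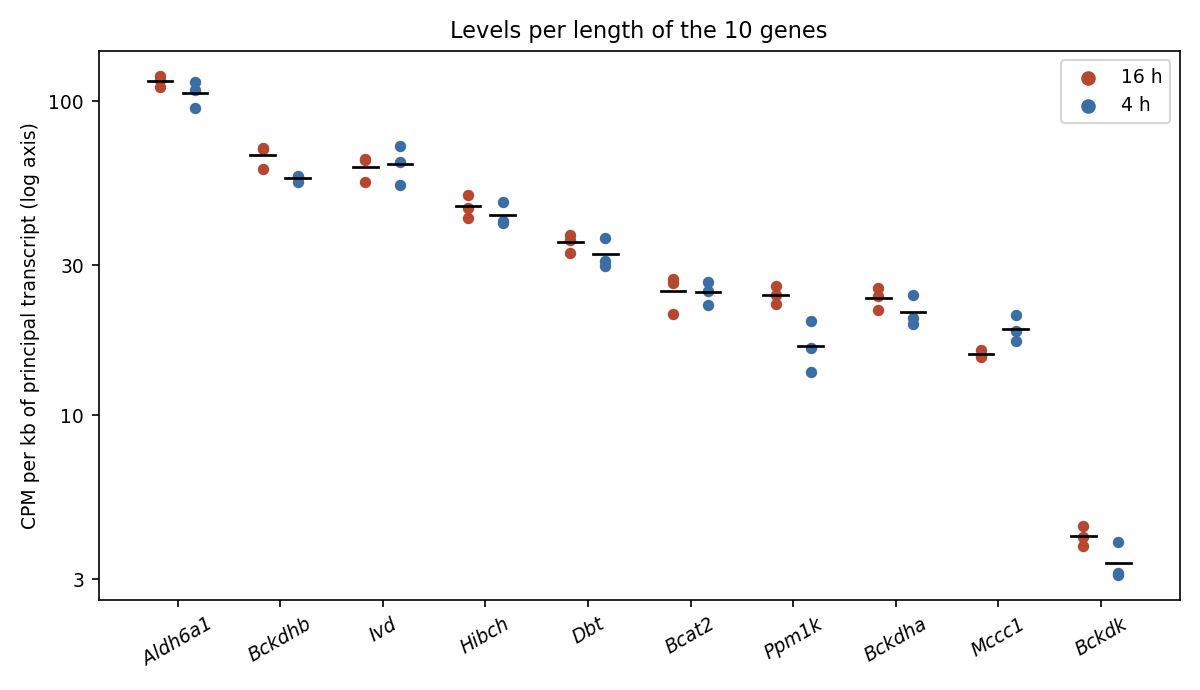
Level of the 10 genes in CPM per kilobase of the longest principal transcript (log axis), with 16 h livers to the left of 4 h livers for each gene; points are livers and black bars group means. Aldh6a1 is highest and Bckdk lowest in both groups, and Ppm1k shows the widest gap between the fasts.

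The pyruvate dehydrogenase complex has the same architecture, with its own E1 and E2 subunits, kinases and phosphatases, so its parts were set beside those of the branched-chain complex. The tests of both come from the same fit, and the difference between corresponding genes was not tested. Pdhb, the E1 beta subunit, fell to 126 ± 3.8 CPM in 16 h livers, against 167 ± 13.9 CPM in 4 h livers (-0.41 ± 0.11, edgeR adjusted p = 0.0209), where Bckdhb had a change of 0.25. That call ended when 4 h replicate 1 was left out (0.0662), and for each of the 16 h replicates in turn (0.0915, 0.0836 and 0.0737). The E1 alpha subunits Bckdha and Pdha1 had changes of 0.15 and 0.25, and the E2 cores Dbt and Dlat of 0.12 and -0.15, none of which passed. Without 4 h replicate 3 the change of Pdha1 was 0.09 and that of Dlat -0.24.

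Of the pyruvate dehydrogenase kinases Pdk4 rose, with 27.5, 13.7 and 23.0 CPM in 16 h livers, against 7.57, 4.44 and 7.61 CPM in 4 h livers (1.70 ± 0.28, edgeR adjusted p = 0.00323, and 0.0532 without 4 h replicate 3). Pdk1 (-0.31 ± 0.15) and Pdk2 (-0.22 ± 0.11) did not pass (edgeR adjusted p = 0.179 and 0.201), and Pdk1 passed without 4 h replicate 3 (0.0204). Pdk3, at no more than 0.411 CPM in any liver, was not tested. Of the phosphatases, Pdp2 averaged 50.5 ± 2.8 CPM in 16 h livers and 50.6 ± 1.1 CPM in 4 h livers (0.00 ± 0.10), and Pdp1 was near 1.62 ± 0.33 and 1.14 ± 0.71 CPM (0.59 ± 0.41, edgeR adjusted p = 0.337).

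**Figure D4:**
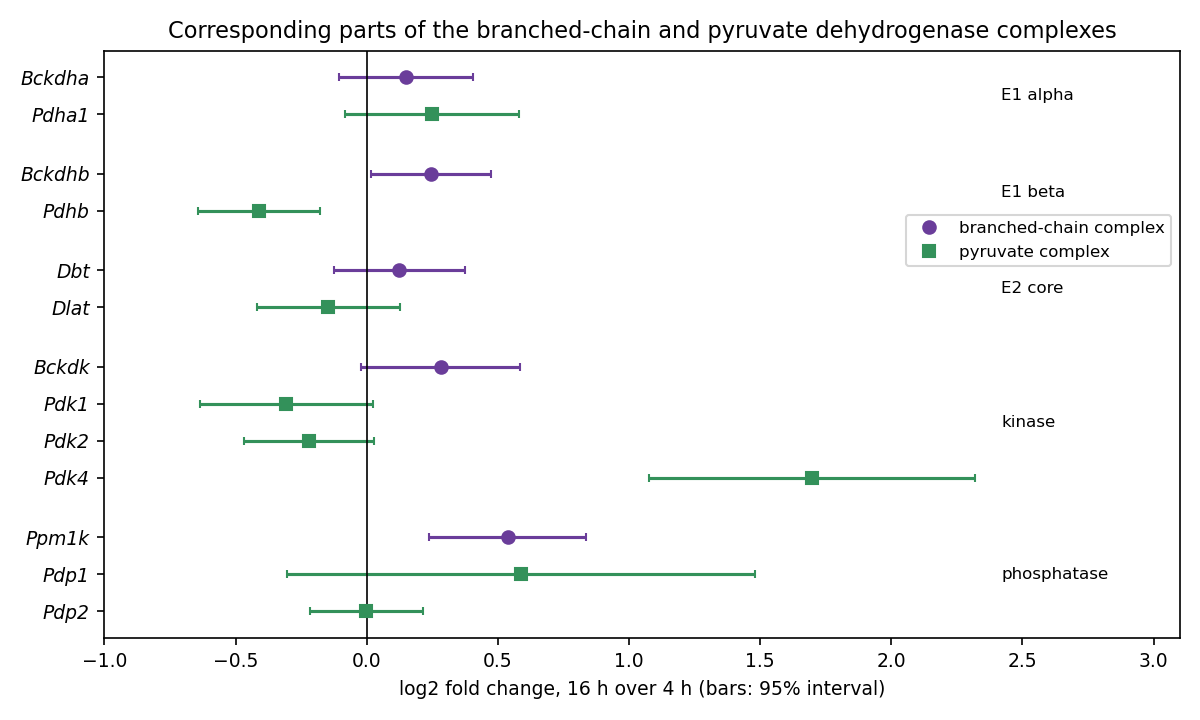
Log2 fold change of 16 h over 4 h with 95% intervals for corresponding parts of the branched-chain complex (circles) and the pyruvate complex (squares), grouped by role. Pdk4 at 1.70 lies farthest to the right, and Pdhb at -0.41 farthest to the left.

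Of 15 breakdown genes of aromatic amino acids and histidine, 5 were higher and 1 lower by the same test, where the 10 members gave 1 and 0. The shares over all tested genes were 9.18% higher and 9.51% lower. Their median log2 fold change was -0.02 and their median size of change 0.25, against 0.13 and 0.14 for the 10 members. The difference between these counts was not tested.

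A list of 6 genes around the pathway, transporters, regulators and the enzyme Acly, held 0 that rose and 2 that fell. Over all tested genes 9.18% rose and 9.51% fell. Mlxipl, which encodes ChREBP, a carbohydrate-sensing transcription factor known in rodent liver to act on the expression of both Bckdk and Ppm1k, fell to 208 ± 10.2 CPM in 16 h livers, against 527 ± 13.6 CPM in 4 h livers (-1.34 ± 0.10, edgeR adjusted p = 1.88e-05). Acly, the citrate lyase that the kinase and the phosphatase are known, in rat liver, to modify as well, was at 90.5, 76.0 and 84.3 CPM in 16 h livers, against 334, 263 and 186 CPM in 4 h livers (-1.64 ± 0.19, edgeR adjusted p = 3.02e-04). Both kept their calls in all alternatives. Klf15, a transcription factor known to promote amino acid breakdown, averaged 202 ± 18.1 CPM in 16 h livers and 157 ± 33.3 CPM in 4 h livers and did not pass (0.37 ± 0.15, edgeR adjusted p = 0.112). It did pass without 4 h replicate 3 (0.00595), without the filter on low counts (0.0212) and with the replicate block (0.0416). The amino acid transporter subunit Slc3a2 averaged 37.5 ± 0.31 CPM in 16 h livers and 38.5 ± 7.3 CPM in 4 h livers (-0.04 ± 0.13), and its partner Slc7a5 was at no more than 3.73 CPM in any liver. The transporter Slc43a1 averaged 7.78 ± 1.02 CPM in 16 h livers and 11.1 ± 2.7 CPM in 4 h livers, without overlap (-0.51 ± 0.19, edgeR adjusted p = 0.0793). Slc43a1 passed without 4 h replicate 3 (0.0293) and without the filter on low counts (0.0414).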

How the data were processed

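Total RNA of 6 livers was sequenced, 3 after a 16 h and 3 after a 4 h fast. Per the submitters' processing notes, the authors used Trimmomatic, FastQC, STAR on GRCm38 (mm10), HTSeq and DESeq2. The labels state no versions, annotation release or strand setting. The authors deposited raw counts per Ensembl gene, 55471 genes and 5 summary lines per library. The summary lines stayed out of all totals: reads outside genes made up 6.44% to 7.14% of tallied reads and ambiguous ones 5.78% to 6.59%.

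The test was that of edgeR 4.0.16, run in R 4.3.3 (filterByExpr, TMM, robust quasi-likelihood fit, 2-sided), with p-values adjusted over 13812 tested genes by Benjamini-Hochberg. SE and 95% intervals came from the same fit, and CPM use TMM-scaled totals. Symbols, positions, overlaps and lengths came from GENCODE M21 (GRCm38), which held 55230 of the identifiers (99.6%). One pathway gene was left out of all lists and is not reported here. Members and lists were chosen with earlier results of these data known. Named were all members, called genes and the 3 highest per length of the pathway and context lists, counterparts in the pyruvate complex and leading markers. Mccc2, Dld, Acadsb, Slc25a44, Mcee and Slc43a1 were named after their values were seen. Bcat1, Slc7a5 and the markers other than the leading ones also lie outside that rule. Alternatives were the size factors and Wald test of DESeq2 1.42.0, no filter, a replicate block and leaving out each library. No pair of libraries counted as 1 (chi-square per degree of freedom 17.3 to 68.5). The pairs that included 4 h replicate 3 gave 48.0 and 68.5, and all other pairs within a group 17.3 to 20.6. The labels do not say that livers came from separate experiments, so p-values measure the spread between these mice.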

Additional observations from a re-analysis of the deposited data

How the results depend on the processing

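Over 10 members and 10 alternatives, 95 of 100 combinations stayed on their side of the threshold. DESeq2's size factors, its Wald test and no filter left 1 member higher and 0 lower. When single libraries were left out, members higher numbered 0 to 2 and members lower 0 to 1, other pathway genes higher 1 to 2 and lower 0 to 2, and all tested genes higher 671 to 1594 and lower 696 to 1393. Other pathway genes lower were 2 without the filter and 2 with the replicate block. The log2 ratio of Bckdk to Ppm1k differed by -0.46 to -0.02 without single libraries and by -0.27 with 0.5 CPM added. The correlation of deviations was 0.0876, 0.0933 and 0.0455 for livers of equal replicate number, and -0.138 to 0.0662 for unequal numbers. Whether replicate numbers pair the livers was not tested. The replicate block gave 1352 higher and 1396 lower genes, and 1 member higher and 0 lower. Without single 16 h libraries, genes higher numbered 671 to 818 and genes lower 696 to 823. Without single 4 h libraries, which leaves equally many samples, they numbered 1035 to 1594 and 1037 to 1393. The cause of this difference was not tested. Depth limits Bcat1, Pdk3 and Slc7a5, and intervals cover counting error and the spread of 3 livers only.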
